A study of Mus musculus with 32 samples.

Results

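The 2′,5′-oligoadenylate synthetase (OAS) family of the mouse is represented here by 8 genes, Oas1a, Oas1b, Oas1c, Oas1g, Oas2, Oas3, Oasl1 and Oasl2. The genes were chosen by symbol, with earlier results of these data known. They are 8 of 54281 rows of a table of counts per gene, and all 8 were among the 15257 genes that were expressed highly enough to be tested. The libraries were made from bone marrow-derived macrophages (BMDMs), which are macrophages grown from mouse bone marrow in culture. Every culture carried R26 CreERT2, a Cre recombinase that is expressed from the ubiquitously active Rosa26 locus and works only once 4-hydroxytamoxifen (4-OHT) has bound to it. In Trex1 FL/FL R26 CreERT2 cells both alleles of Trex1, which encodes a DNase that degrades DNA in the cytosol, were flanked by loxP sites, and in Trex1 WT/FL R26 CreERT2 cells only 1 allele was, so that a wild type allele remained. Cells of both genotypes received 2 µg/ml 4-OHT for 22 h or were left untreated and were harvested on day 1, 2, 3 or 4 thereafter, with 2 libraries for each of the 16 groups and 32 in all. The labels give no age, animal, batch or replicate number, and nothing says whether the libraries of a group came from separate mice, so that p-values measure the spread between these libraries, which may be technical.

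OAS enzymes bind double-stranded RNA and join ATP into 2′,5′-linked oligoadenylates (2-5A), a second messenger of the antiviral response that leads to the decay of RNA. The genes are classical interferon-stimulated genes (ISGs): type I IFN acts through its receptor on the transcription factor complex ISGF3, which binds interferon-stimulated response elements (ISREs) in their promoters. In the mouse the Oas1 gene has been duplicated many times, Oas2 and Oas3 carry repeated OAS units, and the OAS-like proteins Oasl1 and Oasl2 end in ubiquitin-like domains. Oasl1 lacks synthetase activity and is known as an inhibitor of Irf7 translation, whereas Oasl2 is an active synthetase.

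The family lies at 2 places on chromosome 5 (GRCm39). Oas2 (chr5:120868398-120887933, minus strand), Oas3 (chr5:120891163-120915729, minus strand), Oas1c (chr5:120938259-120950579, minus strand), Oas1b (chr5:120950700-120962228, plus strand), Oas1g (chr5:121014205-121025676, minus strand) and Oas1a (chr5:121031070-121046449, minus strand) form a cluster. Oasl2 (chr5:115034997-115050295, plus strand) and Oasl1 (chr5:115061294-115075974, plus strand) lie beside each other elsewhere on the chromosome.

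Promoters were searched for the core of an ISRE, since ISGF3 is the complex that is known to drive these genes. The letters GAAA were searched, followed after any 2 bases by GAAA again, on both strands from 250 bases before to 50 bases after the annotated start of the canonical transcript, overlapping matches included. They were found in 3.84% of 21770 promoters of protein-coding genes and in 6 of the 8 members. The 30 bases around the matches are shown on the strand of the gene, 5′ to 3′, with the matched letters in capitals, to let the members be compared.
Oas1a: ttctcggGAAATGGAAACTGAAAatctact
Oas1g: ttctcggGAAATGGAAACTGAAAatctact
Oas1b: ttcccggGAAATGGAAACTGAAAgtcccat
Oas1c: atgggacTTTCAGTTTCCATTTCccgggaa
Oas2: cacacttgagTTTCGATTTCctaggttcct
Oas3: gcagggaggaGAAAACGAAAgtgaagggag

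The windows of Oas1a (chr5:121045586-121045615, minus strand) and Oas1g (chr5:121025672-121025701, minus strand) were identical over all 30 bases. Those of Oas1b and Oas1c were 1 and the same stretch of DNA (chr5:120950671-120950700), read on the plus strand for Oas1b and on the minus strand for Oas1c, because these neighbours are transcribed away from each other. Each of these 4 genes held 2 matches that overlap. Oas2 (chr5:120887970-120887999, minus strand) and Oas3 (chr5:120915780-120915809, minus strand) held 1 match each. In Oas1a the annotated start lies within the window shown, which reaches from 5 bases before to 25 bases after it, whereas the start given by RefSeq lies after both matches. Oasl1 and Oasl2 held no match, which says only that these letters are not in these windows. The letters TTC and GAA with any 3 bases between them, the core of a gamma-activated sequence (GAS), were found in 8.81% of all promoters and, among the members, in Oas1a alone.

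The counts of Trex1 followed the labels. Trex1 was at 0 in 6 of the 8 libraries of 4-OHT-treated Trex1 FL/FL cells and at 14 and 9 counts in those of day 2, while 4-OHT-treated Trex1 WT/FL cells held 758 to 3622 counts and untreated cells 1174 to 6553. Totals ranged from 35120505 to 63760884 counts per library, and the libraries of each group differed by more than sampling noise. Chi-square per degree of freedom was 47.4 in untreated Trex1 FL/FL cells of day 1 and 9.02 to 20.4 in the other groups. All 8 macrophage markers were detected in every library, with a summed level of 15300 to 48600 CPM, which are counts relative to the library total times a scaling factor. The T cell genes Cd3d, Cd3e and Cd3g reached at most 0.0908 CPM and Cd8a was at 0, so that the summed T cell markers came from Cd4, at up to 52.9 CPM. The summed levels reached 6.58 CPM for B cell markers, 2.5 for dendritic cell, 2.27 for fibroblast, 1.26 for erythroid and 17.8 for granulocyte markers. All CPM were scaled with the TMM method of edgeR. In such bulk libraries, fewer cells of a type and less RNA per cell cannot be told apart.

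The first question was whether the members depended on Trex1 once both alleles had been removed, and it was addressed by comparing 4-OHT-treated Trex1 FL/FL with 4-OHT-treated Trex1 WT/FL BMDMs on each day. On day 1 no member passed the test, with log2 fold changes of 0.11 to 0.67 and adjusted p of 0.387 to 1. From day 2 on, the OAS family was higher in the Trex1 FL/FL cells, by the adjusted p for 8 of 8 members on days 2 and 4 and for 7 of 8, all but Oas2, on day 3. Oasl1 was furthest apart and Oas2 least, and the difference was widest on day 4, at between 1.69-fold (Oas2) and 7.37-fold (Oasl1).

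A gene was called where its Benjamini-Hochberg adjusted p over all genes tested, from edgeR's quasi-likelihood test, was under 0.01 and its log2 fold change exceeded 1.5 in size, which are the thresholds of the study. By this rule 0, 1, 1 and 4 of the 8 members were called higher on days 1, 2, 3 and 4, beside 0.00655%, 0.498%, 0.485% and 1.65% of all genes tested. With the adjusted p alone, 0, 8, 7 and 8 members were higher, beside 0.00655%, 5.69%, 6.69% and 9.84% of all genes tested, and no member was lower. On day 1, 5 members had an unadjusted p below 0.05, beside 2.02% of all genes in either direction, and DESeq2 called 0. The median log2 fold change of the 8 members was 0.35, 0.82, 0.79 and 1.60, where that of all genes tested was -0.01, -0.01, -0.01 and -0.04. Both libraries of 4-OHT-treated Trex1 FL/FL cells lay above the other 6 libraries of the same day for 0 members on day 1, where this held for 2.63% of all genes, and for 8 of 8 on days 2, 3 and 4, where it held for 17.3%, 18.8% and 18.3%.

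**Figure D1:**
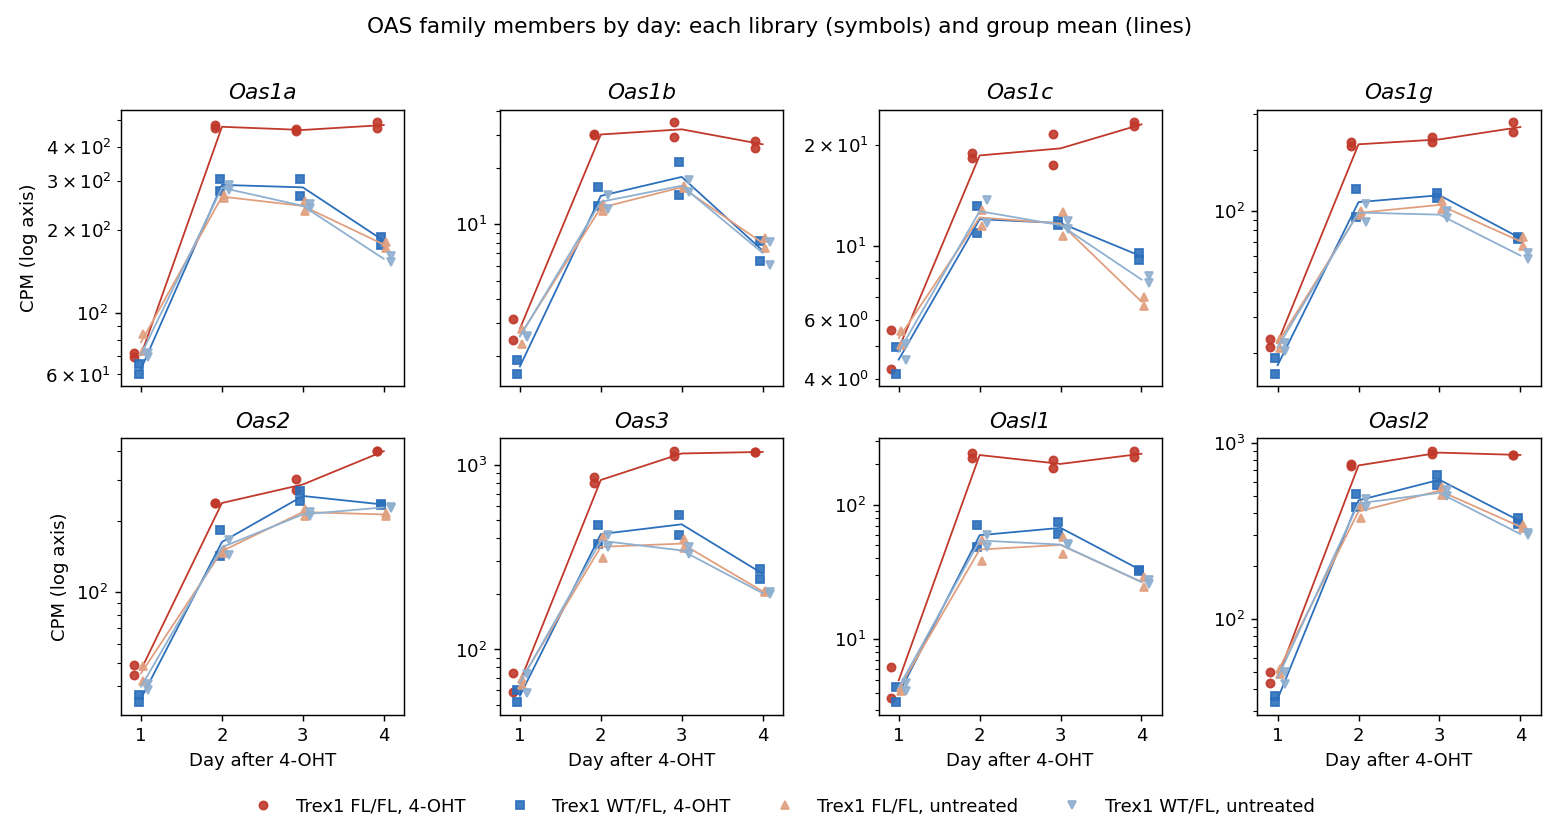
Level of each OAS family member in CPM (log axis) by day after 4-OHT. Symbols are single libraries, lines join the means of 2 libraries, and colours give genotype and treatment. The 4-OHT-treated Trex1 FL/FL libraries lie above the other 6 libraries of the day for 8 of 8 members on days 2, 3 and 4.

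Oasl1, the OAS-like protein without synthetase activity, was low on day 1, when its libraries held 6.28 and 3.67 CPM in 4-OHT-treated Trex1 FL/FL and 4.46 and 3.42 CPM in 4-OHT-treated Trex1 WT/FL cells, which overlap. On day 2 they held 243.9 and 224.5 against 70.2 and 48.7 CPM, on day 3 214.0 and 188.5 against 60.8 and 74.0 CPM, and on day 4 251.2 and 227.7 against 32.4 and 32.5 CPM. From day 2 on the 2 genotypes did not overlap. How often 2 libraries lay apart from 2 was not counted over all genes, here or for the members below. Such separation is given as a description only. The log2 fold change was 1.98 ± 0.21 (SE) on day 2 (adjusted p = 2.82e-06), 1.58 ± 0.21 on day 3 (adjusted p = 2.92e-05) and 2.88 ± 0.22 on day 4 (adjusted p = 1.3e-08), and Oasl1 was the only member called on all 3 days. The call of day 3 was close to the threshold, and the log2 fold change was 1.49 without replicate 1 of the 4-OHT-treated Trex1 FL/FL libraries of that day and 1.44 without replicate 1 of the Trex1 WT/FL libraries. With only the 4 libraries compared in the fit, the adjusted p of day 2 was 0.0453, although the log2 fold change was 1.99.

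Oasl2, its active neighbour, held 736.5 and 755.5 CPM against 513.2 and 430.3 CPM on day 2, 901.9 and 862.6 against 573.8 and 662.3 CPM on day 3, and 859.4 and 851.7 against 345.2 and 372.7 CPM on day 4, so that the genotypes did not overlap on any of these days. The log2 fold changes were 0.66 ± 0.10 (SE; adjusted p = 2.22e-05), 0.51 ± 0.09 (adjusted p = 0.000363) and 1.25 ± 0.10 (adjusted p = 5.53e-10), below the size needed for a call. A contrast between Oasl1 and Oasl2 was not tested.

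Oas3, which encodes the longest protein of the family, held 861.2 and 797.0 CPM against 469.8 and 374.1 CPM on day 2. On day 3 it held 1191 and 1117 against 419.6 and 534.0 CPM, and on day 4 1179 and 1175 against 241.0 and 273.7 CPM. Oas3 was called on day 4 alone, with a log2 fold change of 2.19 ± 0.16 (SE; adjusted p = 6.03e-09), after 0.97 ± 0.16 on day 2 (adjusted p = 0.000221) and 1.275 ± 0.16 on day 3 (adjusted p = 1.23e-05).

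Oas2 moved least. Its libraries held 238.9 and 239.9 against 184.3 and 142.5 CPM on day 2, 302.0 and 272.2 against 243.8 and 269.1 CPM on day 3 and 396.9 and 398.7 against 233.7 and 237.7 CPM on day 4. The libraries did not overlap, but those of day 3 came within a few CPM of each other. The log2 fold change was 0.55 ± 0.09 (SE; adjusted p = 7.16e-05) on day 2, 0.16 ± 0.09 (adjusted p = 0.23) on day 3 and 0.75 ± 0.09 (adjusted p = 2.81e-07) on day 4. Oas2 was the only member that did not pass the adjusted p on day 3.

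Oas1a, an active synthetase, held 465.3 and 478.2 CPM against 305.8 and 275.9 CPM on day 2, 464.5 and 454.3 against 265.4 and 304.4 CPM on day 3, and 489.1 and 468.2 against 176.2 and 189.0 CPM on day 4. Its log2 fold change of 1.39 ± 0.07 (SE) on day 4 had the smallest adjusted p of the family (2.01e-14) and missed the fold needed for a call. Oas1g, its near copy, held 207.2 and 217.2 against 127.8 and 92.8 CPM on day 2, 230.4 and 218.1 against 115.9 and 122.5 CPM on day 3, and 271.7 and 244.2 against 72.7 and 74.0 CPM on day 4, where it was called (log2 fold change 1.81 ± 0.12, adjusted p = 1.41e-10). The genotypes overlapped for neither gene from day 2 on, nor on day 1, when neither passed the test. On day 1 Oas1a held 71.5 and 69.6 against 65.2 and 60.45 CPM and Oas1g 21.5 and 23.4 against 19.0 and 15.8 CPM. The libraries of Oas1b, Oas2 and Oasl2 also lay apart on day 1, while those of Oas1c, Oas3 and Oasl1 overlapped.

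The head-to-head pair Oas1b and Oas1c was lowest of the family per kb of transcript on day 4. Oas1b, whose full-length form is known from strains of mice that resist flaviviruses and which GENCODE annotates with a loss of function on the reference genome, held 30.0 and 30.1 CPM against 15.8 and 12.5 CPM on day 2 and 34.8 and 29.2 against 14.4 and 21.4 CPM on day 3. On day 4 it held 25.6 and 27.7 against 6.35 and 8.15 CPM and was called (log2 fold change 1.88 ± 0.17 (SE), adjusted p = 5.01e-09). Oas1c held 18.9 and 18.3 against 13.1 and 10.9 CPM on day 2, 17.4 and 21.6 against 11.86 and 11.5 CPM on day 3 and 22.7 and 23.3 against 9.08 and 9.49 CPM on day 4, and its log2 fold change of 1.31 ± 0.13 (adjusted p = 7.95e-09) missed the fold needed for a call. On none of these days did the genotypes overlap for either gene, which was not counted over all genes.

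**Figure D2:**
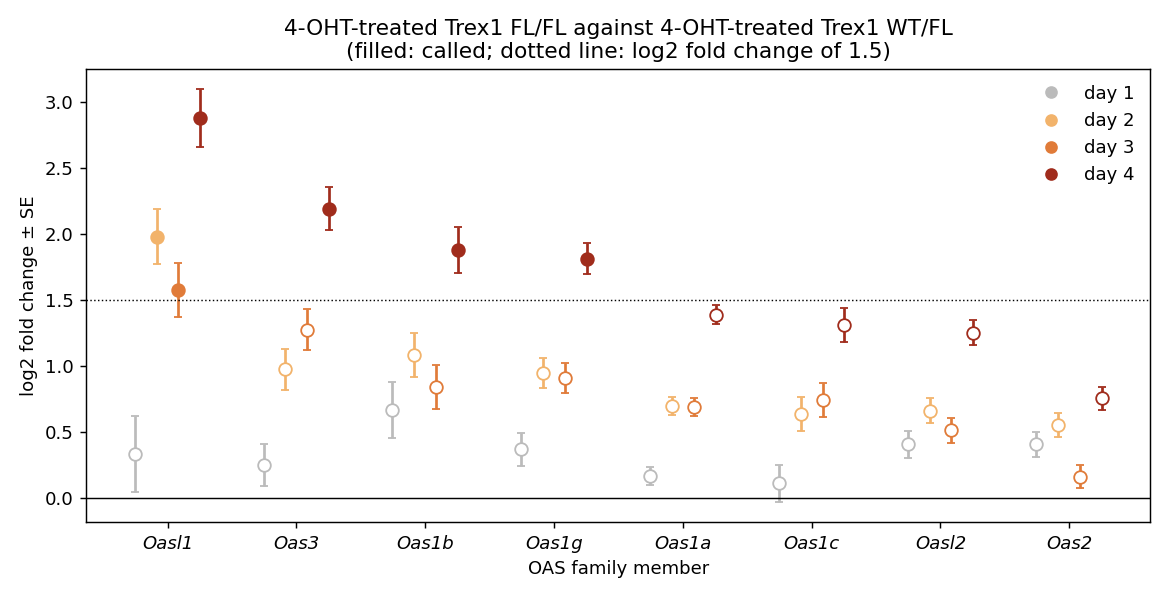
Log2 fold change of each member between 4-OHT-treated Trex1 FL/FL and 4-OHT-treated Trex1 WT/FL cells on days 1 to 4, ± SE, from 2 libraries against 2. Filled circles are called genes and the dotted line marks a log2 fold change of 1.5. Oasl1 is filled on days 2, 3 and 4, and Oas3, Oas1b and Oas1g on day 4.

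The change of the genotype difference between consecutive days was tested as a contrast of its own. From day 1 to day 2 the difference widened for Oasl1 by 1.65 ± 0.36 (SE) on the log2 scale (adjusted p = 0.00892), the 1 member called beside 0.190% of all genes tested, and for Oas1a by 0.53 ± 0.10 (adjusted p = 0.000839), which made 2 members with an adjusted p below 0.01 beside 2.67% of all genes. The call of Oasl1 was lost when any of 6 of the 8 libraries was left out, each in turn. From day 2 to day 3 no member passed, beside 0.328% of all genes in the direction of a wider difference, and 1 member, Oas2, had an unadjusted p below 0.05 (a change of -0.39 ± 0.13), as had 14.8% of all genes in either direction. From day 3 to day 4 the difference widened for 8 of 8 members, and 6 of them passed the adjusted p (1.67% of all genes tested): Oas1a (0.70 ± 0.10, adjusted p = 1.59e-05), Oasl2 (0.74 ± 0.13, adjusted p = 0.000811), Oas1g (0.90 ± 0.16, adjusted p = 0.000978), Oas2 (0.59 ± 0.13, adjusted p = 0.00316), Oas1b (1.04 ± 0.24, adjusted p = 0.00609) and Oasl1 (1.304 ± 0.29, adjusted p = 0.00945). Oas3 (0.92 ± 0.22, adjusted p = 0.0141) and Oas1c (0.57 ± 0.18, adjusted p = 0.0593) did not pass.

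The controls compared the genotypes without 4-OHT, and 4-OHT with no treatment where a wild type allele of Trex1 remained. In untreated cells 0 of 8 members passed the adjusted p between the genotypes on any day in either direction, beside 0% of all genes in the higher direction on days 1, 2 and 3 and 0.0131% on day 4. In the lower direction 0 genes passed on days 1, 2 and 3 and 8 of 15257 on day 4. At an unadjusted p below 0.05 there was 1 member on day 1, 0 on days 2 and 3 and 1 on day 4, beside 7.40%, 3.85%, 3.07% and 15.8% of all genes in either direction, and DESeq2 called 0 members on every day. In Trex1 WT/FL cells, where 4-OHT removes 1 allele, mean Trex1 was at 13.6, 57.2, 74.2 and 48.4 CPM after 4-OHT against 30.3, 119, 135 and 84.3 CPM in untreated cells on days 1 to 4. Between these treated and untreated cells 0 of 8 members passed the adjusted p on any day. Of the 15257 genes tested, 1, 14, 46 and 25 were lower at this limit on days 1, 2, 3 and 4 (0.00655% on day 1). Those higher were 0, 0, 6 and 8 (0.0393% and 0.0524% on days 3 and 4). The log2 fold changes of the 8 members ranged from -0.53 to -0.08 on day 1, from 0.02 to 0.47 on day 3 and from 0.04 to 0.35 on day 4. At an unadjusted p below 0.05 there were 4, 0, 5 and 4 members on days 1, 2, 3 and 4, beside 2.48%, 3.47%, 8.40% and 7.08% of all genes in either direction, and DESeq2 called 0 members on each day.

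Untreated Trex1 FL/FL cells held 54.9 and 38.1 CPM of Oasl1 on day 2 and 28.9 and 24.5 CPM on day 4, and 406.1 and 313.7 CPM of Oas3 on day 2 and 208.4 and 204.6 CPM on day 4. Oas1a was at 266.8 and 260.7 CPM on day 2 and 172.6 and 181.4 CPM on day 4 there. For each of these genes and days both values lay below those of 4-OHT-treated Trex1 FL/FL cells, which was not counted over all genes. This comparison of treated with untreated Trex1 FL/FL cultures shares its treated libraries with the one above. On day 1 no member passed, beside 0% of all genes in the higher direction and 2 of 15257 genes in the lower. On that day 1 member had an unadjusted p below 0.05 (7.00% of all genes in either direction), and DESeq2 called 0. On days 2, 3 and 4 all 8 members were higher at the adjusted p (7.49%, 8.12% and 10.2% of all genes), and 1, 2 and 5 members were called (0.898%, 0.983% and 1.79%). Those called were Oasl1 on all 3 days, Oas3 on days 3 and 4, and Oas1b, Oas1c and Oas1g on day 4. Oasl1 was 3.16 ± 0.22 (SE) higher on the log2 scale on day 4 (adjusted p = 4.18e-09) and Oas3 2.51 ± 0.16 (adjusted p = 9.21e-10). The difference between the effect of 4-OHT in the 2 genotypes passed the adjusted p for 7 members on day 2 (3.55% of all genes), all but Oas1c, for 4 on day 3 (2.65%), namely Oas1a, Oas1g, Oas3 and Oasl1, and for 8 on day 4 (5.15%).

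The largest changes of the family were those between day 1 and day 2, and they were seen in every condition. Here 8 of 8 members were called higher in 4-OHT-treated Trex1 FL/FL cells, where 4.37% of all genes were, and 7 of 8 in 4-OHT-treated Trex1 WT/FL (3.32%), untreated Trex1 FL/FL (3.34%) and in untreated WT/FL cells (3.35%). The member not called in these 3 conditions was Oas1c, whose log2 fold changes of 1.39, 1.20 and 1.39 passed the adjusted p. Untreated Trex1 WT/FL cells, which kept both alleles, went from 4.70 and 4.11 CPM of Oasl1 to 60.0 and 48.5 CPM, from 49.7 and 42.5 CPM of Oasl2 to 477.4 and 430.2 CPM and from 73.8 and 58.0 CPM of Oas3 to 417.7 and 359.0 CPM. For each of these genes every library of day 2 lay above those of day 1. How often this held over all genes was not counted. In this step 3089 of 15257 genes tested were higher at the adjusted p in untreated Trex1 WT/FL cells. Oasl1 rose 47.2-fold in 4-OHT-treated Trex1 FL/FL, 15.1-fold in 4-OHT-treated Trex1 WT/FL, 10.8-fold in untreated Trex1 FL/FL and 12.3-fold in untreated Trex1 WT/FL cells. Oasl2 rose 16.1-, 13.5-, 8.17- and 9.84-fold in the same order, and Oas2 5.12-, 4.64-, 3.31- and 3.93-fold.

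Between day 2 and day 3 the family changed little. Members with an adjusted p below 0.01 were 0 in 4-OHT-treated Trex1 FL/FL cells (15.1% of all genes were higher), 2 in 4-OHT-treated Trex1 WT/FL (17.7%), 2 in untreated Trex1 FL/FL (18.7%) and 1 in untreated WT/FL cells (17.1%), shares near the background. They were Oas2 in all 3 control conditions, with log2 fold changes of 0.65, 0.55 and 0.46, and Oasl2 in the first 2, with 0.39 and 0.39.

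Between day 3 and day 4 the conditions parted. In the control conditions most of the family fell: 6 members in 4-OHT-treated Trex1 WT/FL, 7 in untreated Trex1 FL/FL and 7 in untreated WT/FL cells were lower at the adjusted p, beside 5.93%, 7.18% and 6.39% of all genes, and none was called. The falls were steepest for Oas1b, by 1.304 ± 0.17, 0.98 ± 0.17 and 1.20 ± 0.18 (SE) on the log2 scale. In 4-OHT-treated Trex1 FL/FL cells 0 members fell at the adjusted p, and 1, Oas2, rose (0.47 ± 0.09, adjusted p = 0.000473; 3.64% of all genes rose). Group means were highest on day 4 for 6 of 8 members in these cells, and on day 2 or 3 for 8 of 8 members in 4-OHT-treated Trex1 WT/FL and untreated Trex1 FL/FL cells and for 7 of 8 in untreated Trex1 WT/FL cells, the exception being Oas2. Between the 4-OHT-treated genotypes this parting is the change from day 3 to day 4 tested above, which 6 of 8 members passed. It was not tested against the untreated conditions.

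**Figure D3:**
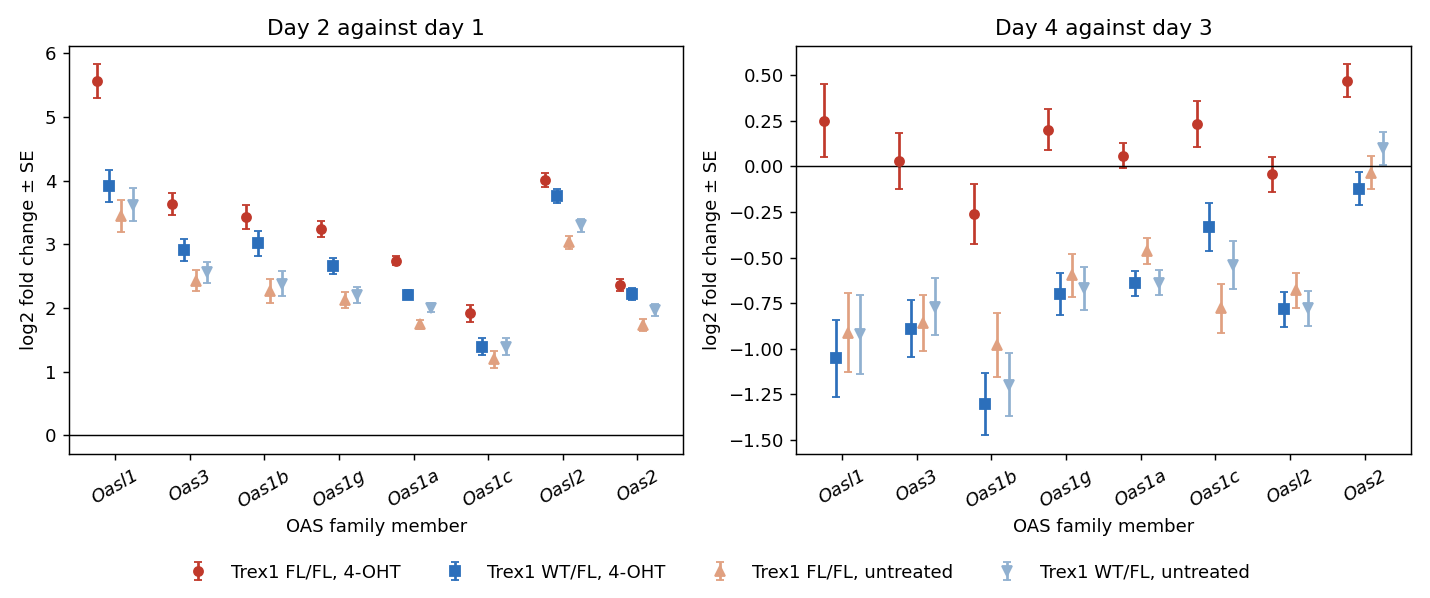
Log2 fold change of each member from day 1 to day 2 (left) and from day 3 to day 4 (right) in the 4 conditions, ± SE, from 2 libraries against 2. All members rise in all conditions on the left, and on the right the values of 4-OHT-treated Trex1 FL/FL cells (red circles) lie above those of the 3 control conditions for each member.

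Oas2 did not pass in this step in any control condition. Its libraries held 218.5 and 209.8 CPM on day 3 and 230.6 and 228.0 CPM on day 4 in untreated Trex1 WT/FL cells, and its log2 fold changes from day 3 to day 4 were -0.12, -0.03 and 0.10 (adjusted p = 0.388, 0.849 and 0.502) in the order of conditions above. Over the 16 group means of log2(CPM + 1), Oas2 had a Pearson correlation of 0.92 with the mean of the other members, where the others had 0.965 to 0.998. These points share libraries and the rise after day 1, and the correlation is given as a description.

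Other markers moved over the same days. The summed level of the 4 cycling genes Mki67, Top2a, Cdk1 and Ccnb1 was 1500 to 1700 CPM on day 1 and 66.4 to 91.8 CPM on day 3. On day 4 the 4-OHT-treated Trex1 FL/FL libraries held 30.7 and 31.5 CPM and the other 6 libraries 121 to 157 CPM, and on day 2 641 and 697 against 824 to 967 CPM. The summed macrophage markers rose from 15300 to 17300 CPM on day 1 to 38900 to 48600 CPM on day 3, and the 2 libraries with both Trex1 alleles removed lay below the other 6 on day 2 (26600 and 28600 against 29400 to 34100 CPM) and day 3 (38900 and 39300 against 44500 to 48600 CPM). On day 4 the macrophage sums overlapped (29500 and 31400 against 29300 to 33200 CPM). Lyz2 alone held 11100 to 34000 CPM over all libraries, so that the sum does not show how each macrophage marker moved. The part of the cycling genes and macrophage markers in the results for the OAS members was not tested.

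Levels were compared between members as CPM per kb of the canonical transcript. In 4-OHT-treated Trex1 FL/FL cells of day 4, Oasl2 was highest (273 and 275 CPM per kb), followed by Oas1a (245 and 256) and Oas3 (249 and 250), whose libraries overlapped, then by Oas1g (124 and 137), Oasl1 (103 and 114), Oas2 (102 and 103), Oas1b (13.9 and 15.1) and Oas1c (9.92 and 10.2). Apart from Oas1a and Oas3, neighbours in this order did not overlap, but those of Oasl1 and Oas2 nearly did. In 4-OHT-treated Trex1 WT/FL cells of day 4 the order was Oasl2 (110 and 119), Oas1a (92.2 and 98.9), Oas2 (60.2 and 61.2), Oas3 (51.0 and 58.0), Oas1g (36.8 and 37.4), Oasl1 (14.7 in both), Oas1c (3.96 and 4.14) and Oas1b (3.46 and 4.44), where only the last pair overlapped. On day 1 Oas1a led in these cells with 31.6 and 34.1 CPM per kb, above Oas3 (11.0 and 12.8), and Oas1b was lowest (0.874 and 1.03).

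**Figure D4:**
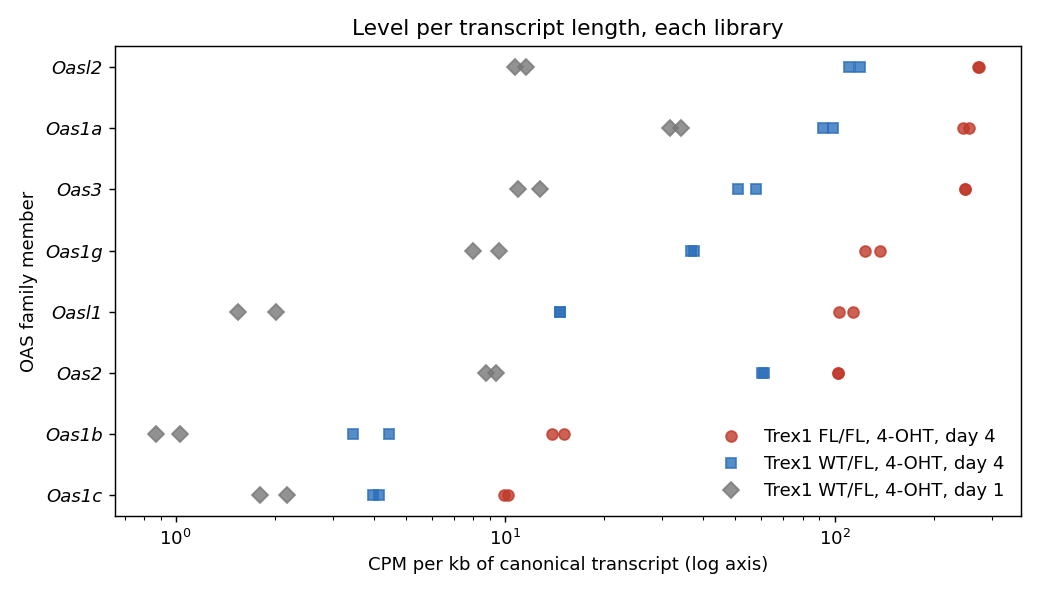
Level of each member in CPM per kb of canonical transcript (log axis), with 1 symbol per library, in 3 of the 16 groups. Oas2 lies above Oas3, Oas1g and Oasl1 in 4-OHT-treated Trex1 WT/FL cells of day 4 (blue squares) and below them in 4-OHT-treated Trex1 FL/FL cells of day 4 (red circles).

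Some Oas1 genes are near copies of each other, and reads were assigned to them by the authors' software. Of the 31-base words in the annotated transcripts of Oas1g, 61.6% occurred in transcripts of other genes and 60.0% in those of Oas1a. The share was 22.8% for Oas1a, 20.7% for Oas1c and 8.39% for Oas1b, 2.52% for Oas3, 1.22% for Oasl2, 0.108% for Oasl1 and 0 for Oas2. The split of counts between Oas1a and Oas1g is therefore less certain than that of the other members. The ratio of Oas1a to Oas1g counts was 2.98 to 3.82 in the 8 libraries of day 1 and lower in every library of the later days except for 1 untreated Trex1 WT/FL library of day 2 (3.14). On day 4 it was 1.80 and 1.92 in 4-OHT-treated Trex1 FL/FL cells, below the 2.42 to 2.63 of the other 6 libraries. When the counts of all 8 Oas1 rows of the table were summed into 1, the log2 fold change between the 4-OHT-treated genotypes was 0.22 ± 0.08 (SE; adjusted p = 1) on day 1, 0.78 ± 0.07 (adjusted p = 1.79e-08) on day 2, 0.76 ± 0.07 (adjusted p = 2.33e-08) on day 3 and 1.53 ± 0.08 (adjusted p = 1.43e-14) on day 4, where the sum was called.

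**Figure D5:**
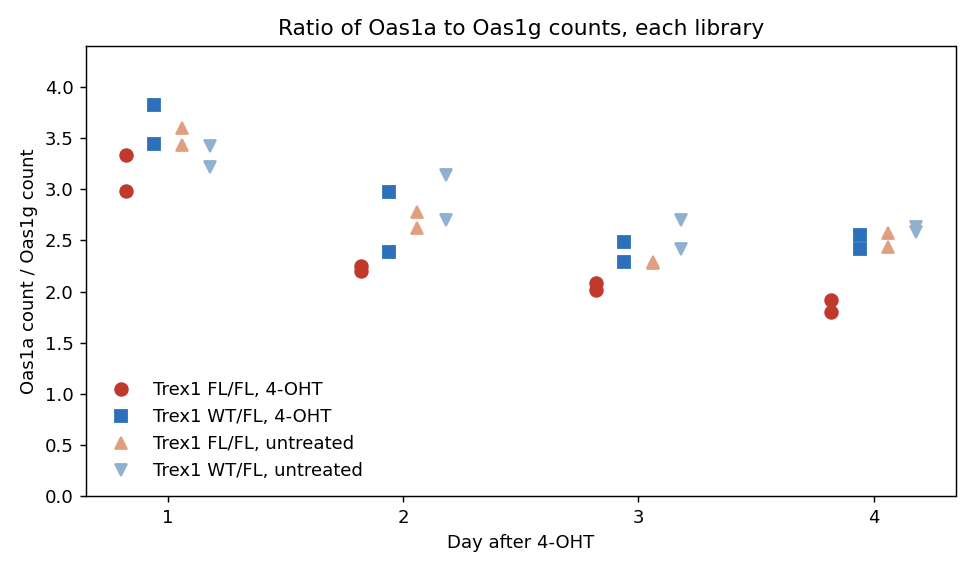
Ratio of the counts of Oas1a to those of Oas1g by day, with 1 symbol per library. The ratio lies between 2.98 and 3.82 on day 1, and the 4-OHT-treated Trex1 FL/FL libraries (red circles) lie lowest on days 2, 3 and 4.

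The study used qPCR primers for 2 members, and they were searched in annotated transcripts by exact match over their full length. Matches with a mismatch were not searched, so that whether the primers tell near copies apart in a PCR was not tested. The primers of Oas1a lie in coding sequence of exon 2 (forward, chr5:121043664-121043681, minus strand) and exon 3 (reverse, chr5:121040073-121040092, plus strand) and matched annotated transcripts of Oas1a but not of Oas1g or any other gene, with a product of 68 bases. Those of Oasl1 lie in coding sequence of exon 2 (forward, chr5:115066339-115066360, plus strand) and exon 3 (reverse, chr5:115067970-115067991, minus strand) and matched Oasl1 alone, with a product of 119 bases.
Oas1a forward: gctgccagcctttgatgt
Oas1a reverse: tggcatagattctgggatca
Oasl1 forward: cgttgtgcccgcctacagagcc
Oasl1 reverse: gctgcagctcgctgaaggatgg

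The other Oas1 genes of the cluster were not tested: Oas1d, which overlaps Oas1a on the opposite strand, reached 17 counts in a library, Oas1e 3, Oas1f 4 and Oas1h 5. Of other genes around 2-5A, Abce1, Pde12 and Akap7 were tested, and none of them was higher at the adjusted p on any day in the comparison of the 4-OHT-treated genotypes. Abce1, which is also known for the recycling of ribosomes, was lower on day 4 (-0.22 ± 0.06, adjusted p = 0.0061).

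Of 7 genes for other sensors and effectors of double-stranded RNA, 6 were higher at the adjusted p on each of days 2, 3 and 4 (Eif2ak2, Ifih1, Rigi, Dhx58, Adar and Zbp1), and Mavs did not pass on any day. Dhx58, which encodes the RIG-I-like receptor LGP2, and Zbp1, a sensor of Z-form nucleic acids, were called on day 4 with log2 fold changes of 1.63 and 2.45. Of the genes of the type I IFN receptor and ISGF3 that are described here, Stat2 (log2 fold change 1.99) and Irf7 (2.38) were called on day 4 and higher at the adjusted p on days 2 and 3 as well, whereas Tyk2 was higher on day 2 alone and Irf9 on day 4 alone, and Ifnar2 did not pass on any day. The receptor gene Ifnar1 was lower on days 3 (-0.34, adjusted p = 0.000185) and 4 (-0.37, adjusted p = 2.62e-05), and the kinase gene Jak1 on day 4 (-0.20, adjusted p = 0.005). Irf7, whose translation Oasl1 is known to inhibit, had means of 1187 ± 84.2 against 389.5 ± 92.1 CPM (SD, n = 2) on day 2 and of 2551 ± 166 against 490.4 ± 38.5 CPM on day 4, with log2 fold changes of 1.61 ± 0.21 (SE; adjusted p = 2.51e-05; called) and 2.38 ± 0.21 (adjusted p = 1.07e-07).

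Among the 5 tested genes whose pattern over the 16 group means was most like the mean of the members, by Pearson's r of log2(CPM + 1), were Adar (0.999), Ifi204, Dhx58 and Xaf1 (0.998 each). All are described as a likeness over means that share libraries, with no test.

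Genes beside the 2 loci were read in the same comparison. The nearest 2 tested protein-coding genes on each side, Ddx54, Rasal1, Ptpn11 and Rpl6 around the Oas1-Oas2-Oas3 cluster and Ankrd13a, Gm57857, 2210016L21Rik and Sppl3 around the Oasl pair, were not called on any of the 4 days. Ankrd13a was lower at the adjusted p on day 3 (log2 fold change -0.24, adjusted p = 0.000782) and day 4 (-0.36, adjusted p = 1.36e-06), with 165.2 against 212.4 CPM on day 4, and none of the 8 was higher at the adjusted p.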

How the data were processed

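The 8 members and the gene lists were chosen with earlier results of these data known. Per the paper's methods, the authors demultiplexed reads with JE, checked them with FastQC (11.9 in the submitters' processing notes, which also name DESeq2 1.32), quantified transcripts with Salmon and summed them per gene with tximport on GRCm39. The deposited table holds estimated counts, as whole numbers that were not normalized. Strandedness and the annotation release are not given in the sources used here. Columns were assigned to groups from their names and the labels. Of 54281 identifiers, 51048 matched GENCODE vM39 without their version, and the others held 0.32% of counts. The main test was edgeR 4.0.16 run in R 4.3.3 (TMM, glmQLFit with robust estimation, 16 group means, 16 residual degrees of freedom) after filterByExpr with a minimum count of 10. The thresholds for a call were 0.01 for the adjusted p and 1.5 for the size of the log2 fold change. An SE is the absolute log2 fold change divided by the square root of F. With 2 libraries against 2, an exact permutation test cannot go below p = 0.33. Named were all members, Trex1, every gene of the lists that was called on day 4 or lower at the adjusted p, Irf7, 2 tested neighbours per side and the 5 most alike genes. Some genes that the rule names are not reported here, and no counts are given for the lists they belong to. Marker genes and other list genes named beside these were named to account for the lists. Promoter windows, gene positions and words came from GENCODE vM39 and GRCm39, and the RefSeq windows from GRCm38.p6, of which no coordinate is printed. Primer letters came from the study's supplement. Alternatives were RLE and upper-quartile factors, no or a stricter filter (minimum count of 50), DESeq2 1.42.0, fits of the compared libraries alone, other thresholds, the interaction with untreated cells, summed Oas1 rows and leaving out each library. Protein sequences, PCR and other experiments were not analysed here.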

Additional observations from a re-analysis of the deposited data

Results flagged for a closer look

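Groups of 2 libraries are too small to look for a library that stands apart. The genotype difference of 4-OHT-treated cells differed between consecutive days for 8 values at an adjusted p below 0.01 (edgeR quasi-likelihood test of the change). From day 1 to day 2 it widened by 0.53 for Oas1a and 1.65 for Oasl1 on the log2 scale. From day 3 to day 4 it widened by 0.70 for Oas1a, 1.04 for Oas1b, 0.90 for Oas1g, 0.59 for Oas2, 1.304 for Oasl1 and 0.74 for Oasl2. Each has 2 libraries in each of 4 groups, and their adjusted p are given with the comparison. The summed cycling genes and macrophage markers moved over the same days, and their part was not tested.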

How the results depend on the processing

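No paired analysis was possible because the labels give no replicate number, animal or batch, nor say whether libraries of different days share a culture. Of the 2 libraries of a group, that with the lower sample number was the higher in 8 of 8 Trex1 FL/FL groups for Oas3 and Oasl1, in 2 to 6 of 8 for the other members, and in 4 to 6 of 8 Trex1 WT/FL groups for all members. With RLE factors, DESeq2, no filter or a stricter one, the counts of members called stayed within 1.5 times of those reported in every comparison. With upper-quartile factors the call in the change from day 1 to day 2 was lost (0). Fits of only the libraries compared called 0 members between the 4-OHT-treated genotypes on day 2, 0 and 1 between treated and untreated Trex1 FL/FL cells on days 2 and 3, and 0 in the change from day 1 to day 2. With fewer libraries they have fewer residual degrees of freedom. With no minimum fold change and an adjusted p below 0.01 or 0.05, 8, 7 and 8 members passed between the genotypes on days 2, 3 and 4 under either limit, and 8 on each of these days between treated and untreated Trex1 FL/FL cells. In the change of the difference 2 passed from day 1 to day 2 under either limit, and 6 (0.01) or 7 (0.05) from day 3 to day 4. From day 2 to day 3, 3 passed in 4-OHT-treated Trex1 FL/FL cells at 0.05 (0 at 0.01), 2 in treated Trex1 WT/FL and 2 in untreated Trex1 FL/FL cells at either, and 1 or 2 in untreated Trex1 WT/FL cells. From day 3 to day 4, 1, 6, 7 and 7 passed in the same order at either limit. Leaving out 1 library gave 0 to 1 calls between the genotypes on day 3, 0 to 1 in the change from day 1 to day 2 and 0 to 1 from day 3 to day 4 in treated Trex1 WT/FL cells, and moved the log2 fold change of day 1, which had passed no test, between -0.0944 and 0.289 for Oas1c and between -0.102 and 0.673 for Oasl1. As a difference from untreated cells Oas1c was at -0.023 on day 1. On day 4, Oas1c was called as such a difference (1.53), and so was the sum of the Oas1 rows between the genotypes (1.53), which gives no value of its own for Oas1a or Oas1c. Without the filter 35 and not 2 of all genes were called between the genotypes on day 1, 150 and not 89 on day 2 and 202 and not 133 on day 3. No scaling moved the median of all genes by over 0.1. The 2 libraries per group limit every comparison, and 61.6% of the words of Oas1g are shared with other genes.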
